A study of Mus musculus with 11 samples.

Results

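The loci described here are those of 6 genes that mark glial cells, Gfap, Aqp4, Olig2, Sox10, Mbp and Cx3cr1, and the question asked of them was how much open chromatin was called around each in dentate gyrus tissue. The members are the ATAC-seq peaks that lie within 50 kb of the transcription start of each gene: 206 of the 497658 peaks that 11 libraries held on chromosomes 1 to 19 and X. Merged where they shared at least 1 bp, these peaks formed 53 of the 128823 regions of the whole series. ATAC-seq marks accessible DNA with a transposase that inserts sequencing adapters, and peaks are the places where many insertions fall. The dentate gyrus, the granule neuron field of the hippocampus, was taken from C57BL/6 mice at 8 weeks of age, and each library is labelled as coming from 1 animal. All of the mice carried an adeno-associated virus (AAV), whose shRNA was either a control (shRNA-Ctrl) or targeted c-Fos (shRNA-cFos), part of the activity-induced transcription factor AP-1. The series concerns neuronal activity, and its labels give the states E0 (named as sham in the deposited lists) and E1, so that the groups were shRNA-Ctrl E0 with 3 libraries, shRNA-Ctrl E1 with 3, shRNA-cFos E0 with 3 and shRNA-cFos E1 with 2. The promoter that drives the shRNA, the cell types infected and the degree to which c-Fos fell are not given in the sources used here. No animal without the virus was among the samples.

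Gfap encodes an intermediate filament of astrocytes and Aqp4 the water channel of their endfeet. Olig2 and Sox10 are transcription factors of the oligodendrocyte lineage, Mbp encodes myelin basic protein, a structural protein of the myelin sheath, and Cx3cr1 encodes the fractalkine receptor of microglia. Genes in use commonly have open chromatin at their start and at distal enhancers. In whole tissue a peak is called when enough of the cells are open there, so a gene used in a minority of cells may give a weak peak or none. Granule neurons dominate the dentate gyrus, and in such bulk tissue fewer cells of a type and less accessibility per cell cannot be told apart.

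The promoters of 3 of the 6 genes were found in the RefSeq table (build GRCm38.p6) and are shown as background to the starts. The peaks are in another build, mm9, so none was placed on these stretches. Aqp4, Sox10 and Mbp were not matched. Each line gives the 250 bases upstream of the start, 5′ to 3′ on the gene's strand. They lie at chr11:102897201-102897450 on the minus strand (Gfap), chr16:91225300-91225549 on the plus strand (Olig2) and chr9:120068297-120068546 on the minus strand (Cx3cr1). Capitals mark matches to 5 motifs searched on both strands: the AP-1 motif TGANTCA, the cAMP response element TGACGTCA, the TATA box TATAAA, the GC box GGGCGG and the CCAAT box CCAAT.
Gfap: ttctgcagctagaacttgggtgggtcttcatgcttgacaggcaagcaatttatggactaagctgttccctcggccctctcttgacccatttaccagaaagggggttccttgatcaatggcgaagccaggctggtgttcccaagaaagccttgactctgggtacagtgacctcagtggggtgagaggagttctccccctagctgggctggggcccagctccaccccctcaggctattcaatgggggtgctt
Olig2: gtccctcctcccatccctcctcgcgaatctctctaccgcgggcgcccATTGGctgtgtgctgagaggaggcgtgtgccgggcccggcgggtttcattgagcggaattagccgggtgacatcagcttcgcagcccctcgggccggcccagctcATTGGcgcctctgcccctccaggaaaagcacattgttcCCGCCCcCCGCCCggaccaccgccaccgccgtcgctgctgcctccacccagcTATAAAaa
Cx3cr1: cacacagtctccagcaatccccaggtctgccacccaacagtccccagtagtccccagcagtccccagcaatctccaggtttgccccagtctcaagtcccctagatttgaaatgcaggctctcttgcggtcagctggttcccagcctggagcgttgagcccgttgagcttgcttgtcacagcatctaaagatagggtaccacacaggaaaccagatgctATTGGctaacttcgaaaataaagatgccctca
The Gfap stretch held none of the 5 motifs, the Olig2 stretch held 2 CCAAT boxes, 2 GC boxes and a TATA box, and the Cx3cr1 stretch held 1 CCAAT box. Neither the AP-1 motif nor the cAMP response element was in any of the 3. Of 32841 mouse promoter stretches of the same length, 6.75% held the AP-1 motif, 1.55% the cAMP response element, 12.4% the TATA box, 32.7% the GC box and 33.9% the CCAAT box. The GC content was 66.8% at Olig2, 55.6% at Gfap and 53.6% at Cx3cr1, against a median of 52.4% over all promoters. A match is a match of letters and no measurement of binding.

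The amount called around these genes followed the length of the list it was read from. On chromosomes 1 to 19 and X the lists held 25145, 28391 and 29519 peaks in shRNA-Ctrl E0. They held 78349, 35474 and 75908 peaks in shRNA-Ctrl E1. The shRNA-cFos lists held 33134, 74432 and 28417 peaks at E0 and 48262 and 40627 at E1. The 3 longest lists, shRNA-Ctrl E1 replicates 1 and 3 and shRNA-cFos E0 replicate 2, stand apart from the other 8. Depth is unknown, so deeper sequencing and more open chromatin cannot be told apart in these lengths. The deposited names of 9 lists carry the word "all", and those of the other 2, shRNA-Ctrl E1 replicates 1 and 3, do not. What the word means is not stated, so it is not known whether these 2 lists were made in the same way as the rest. Summed over the 6 windows, the lists as deposited held 8, 10 and 14 peaks in shRNA-Ctrl E0, and the shRNA-Ctrl E1 lists held 33, 10 and 39. In shRNA-cFos they held 14, 30 and 14 at E0 and 19 and 15 at E1. The 3 highest sums belong to the 3 longest lists. Per 10000 peaks of the list the sum was 4.04 ± 0.719 (SD, n = 11), between 2.82 and 5.14.

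Every list was therefore also shortened to its 25145 highest-scoring peaks, as many as the shortest list holds, and these lists of equal length are the main reading below. The score is the authors' own value per peak and serves here to order the peaks of 1 list. At equal length the 6 windows held 96 peaks in 22 of 59298 regions: 8, 9 and 11 peaks in shRNA-Ctrl E0, 7, 7 and 8 at shRNA-Ctrl E1, 9, 8 and 12 in shRNA-cFos E0 and 9 and 8 in shRNA-cFos E1. The groups overlap, and the mean over libraries was 8.73 ± 1.56 (SD, n = 11). Shortening is not neutral. The lowest score kept was 50 in the shortest list and 174.94 in shRNA-Ctrl E1 replicate 3, so a weak peak can drop out of a long list and stay in a short one.

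**Figure D1:**
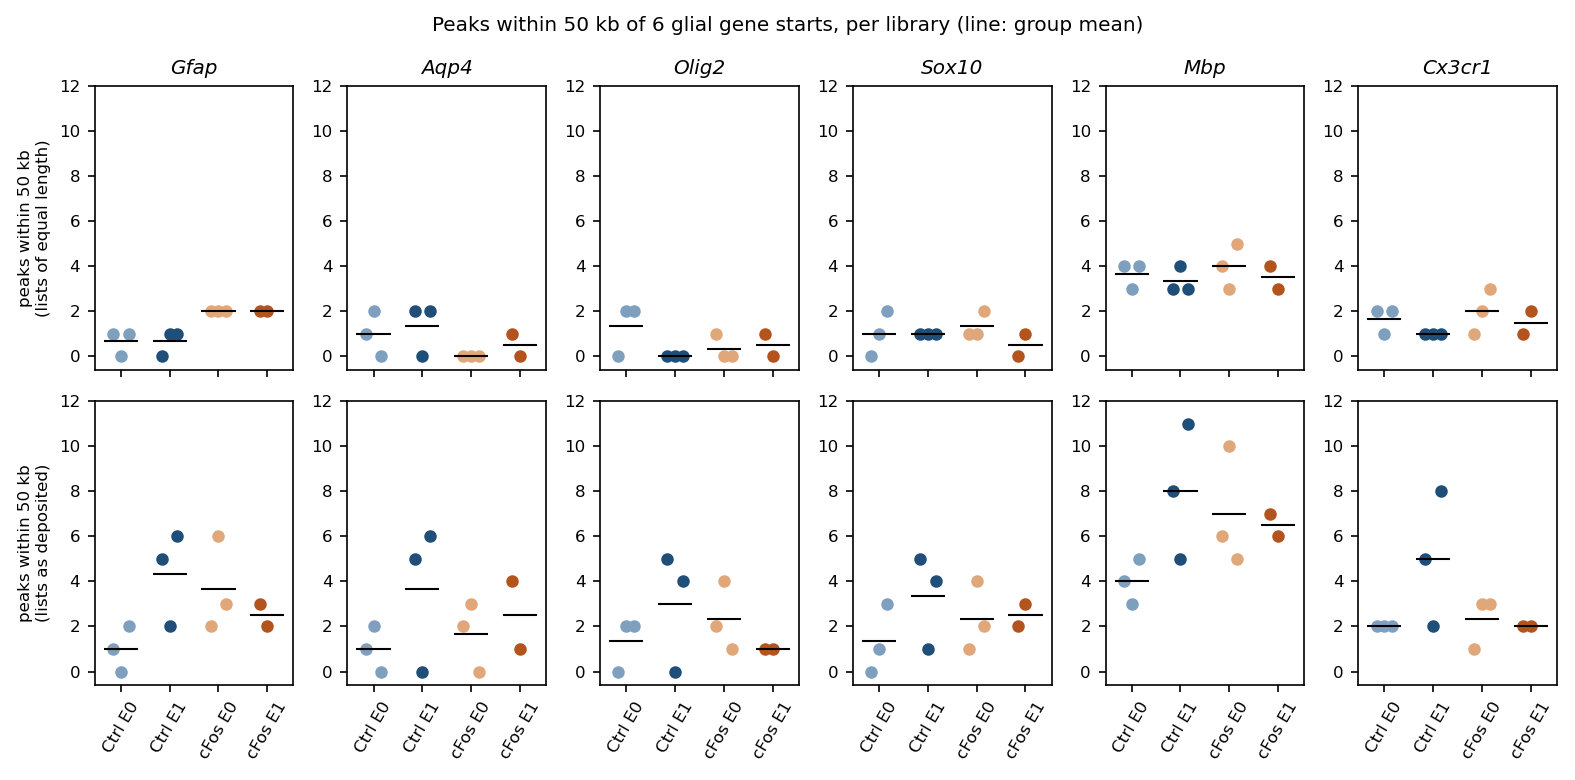
Peaks within 50 kb of each gene start, 1 point per library and a line at the group mean, in lists of equal length (top row) and as deposited (bottom row). At equal length the Mbp window held 3 to 5 peaks in every library and the other 5 windows at most 3, and as deposited the highest counts, 11 and 10 at Mbp and 8 at Cx3cr1, come from the longest lists.

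The 6 windows held unequal numbers of peaks, and Mbp stood apart. At equal length the Mbp window held 3.64 ± 0.674 peaks per library (SD, n = 11), the Cx3cr1 window 1.55 ± 0.688, the Gfap window 1.27 ± 0.786, the Sox10 window 1 ± 0.632, the Aqp4 window 0.727 ± 0.905 and the Olig2 window 0.545 ± 0.820. The lowest Mbp count (3) is reached elsewhere only by 1 library, at Cx3cr1. The other 5 windows overlap each other in their ranges, so their order is not beyond the spread of the libraries. The genome was cut into 26391 consecutive windows of the same size, 100 kb, for comparison. Of these, 19983 held a peak at equal length, with a median of 1 peak per library. Of the windows that held a peak, 96.7% had a mean at or below that of Mbp, 69.5% at or below Cx3cr1, 61.8% at or below Gfap, 51.0% at or below Sox10, 38.6% at or below Aqp4 and 32.2% at or below Olig2. As deposited the shares were 98.9% for Mbp, 76.5% for Cx3cr1 and for Gfap, 67.2% for Sox10, 63.6% for Aqp4 and 59.5% for Olig2. Mbp thus lies among the windows densest in peaks, and the others lie nearer the middle of the range. The glial windows are centred on a gene start and the comparison windows are not, and other genes lie within them.

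**Figure D2:**
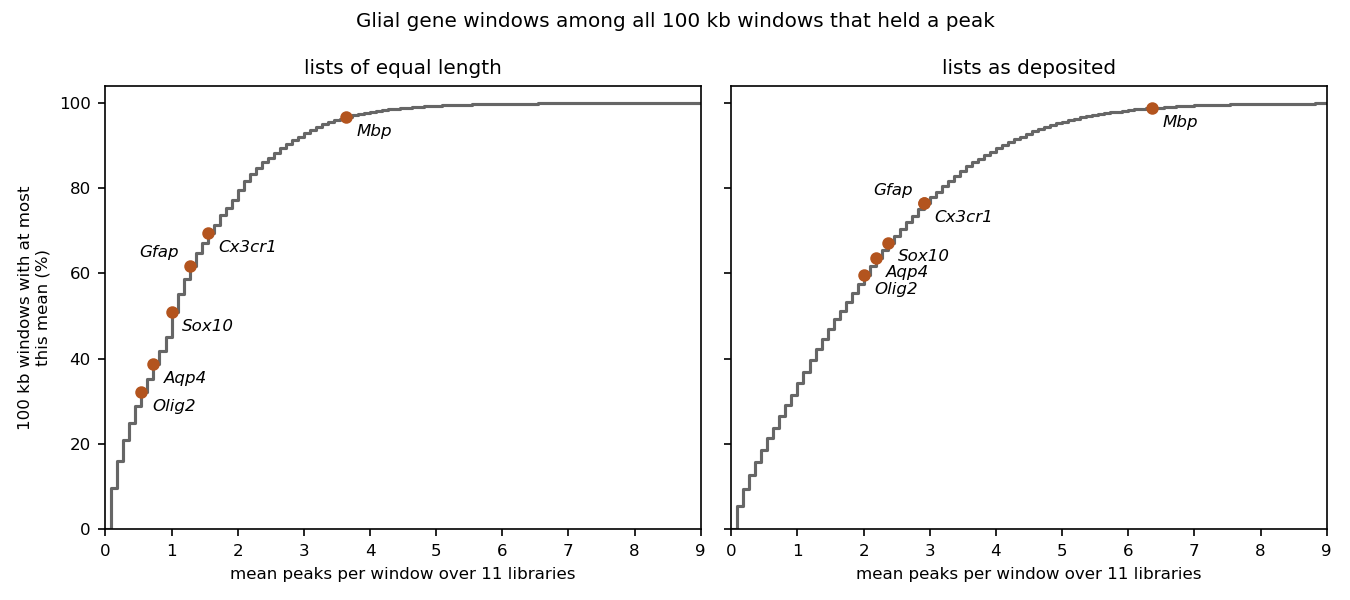
Share of all 100 kb windows with a peak (y axis, percent) whose mean number of peaks per library (x axis) is at or below a given value, with the 6 glial gene windows as points. Mbp lies at 96.7% in lists of equal length and 98.9% as deposited, and Olig2 lowest of the 6 in both.

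The member regions resembled the rest of the regions in width and rank. At equal length their median width was 698 bp against 665 bp over all regions, both sets had a median of 3 calling libraries, and the median of the mean score percentile was 28.1 against 29.7. The score percentile is the rank of a peak's score within its list, from 0 (weakest) to 100 (strongest). Regions called in all 11 libraries made up 3 of the 22 member regions, near the background of 16.4% over all regions. As deposited they made up 3 of 53, against 9.16%. Calls from 1 library alone accounted for 17 of the 53, against 37.9%, and calls from the 3 longest lists alone for 21 of the 53, against 39.4%. None of these shares is read as a difference from its background.

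None of the gene starts had a peak within 1 kb in every library, and the share of all gene starts with a peak was not counted. Within 1 kb of the start, in the lists as deposited, 6 libraries had a peak at Mbp, 4 at Gfap, 3 at Olig2, 1 at Cx3cr1 and 0 at Aqp4 and Sox10. At equal length 1 library had one at Gfap and 1 at Olig2, and none of the 11 had one at Aqp4, Sox10, Mbp or Cx3cr1. The absence at Aqp4 depends on the 1 kb limit. Within 2.5 kb of that start 6 libraries had a peak as deposited and 3 at equal length. Sox10 lacked any peak within 10 kb in all 11 lists as deposited, its nearest region lying 12.4 kb away. As deposited, a start without a called peak is a start below the authors' threshold, not one shown to be closed. At equal length a peak can also be missing because the list was shortened, as at the Mbp start. The starts are given to the nearest kb in mm9, the build of the lists. A region's position in kb is that of its lower-coordinate edge relative to the start, negative toward lower coordinates.

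**Figure D3:**
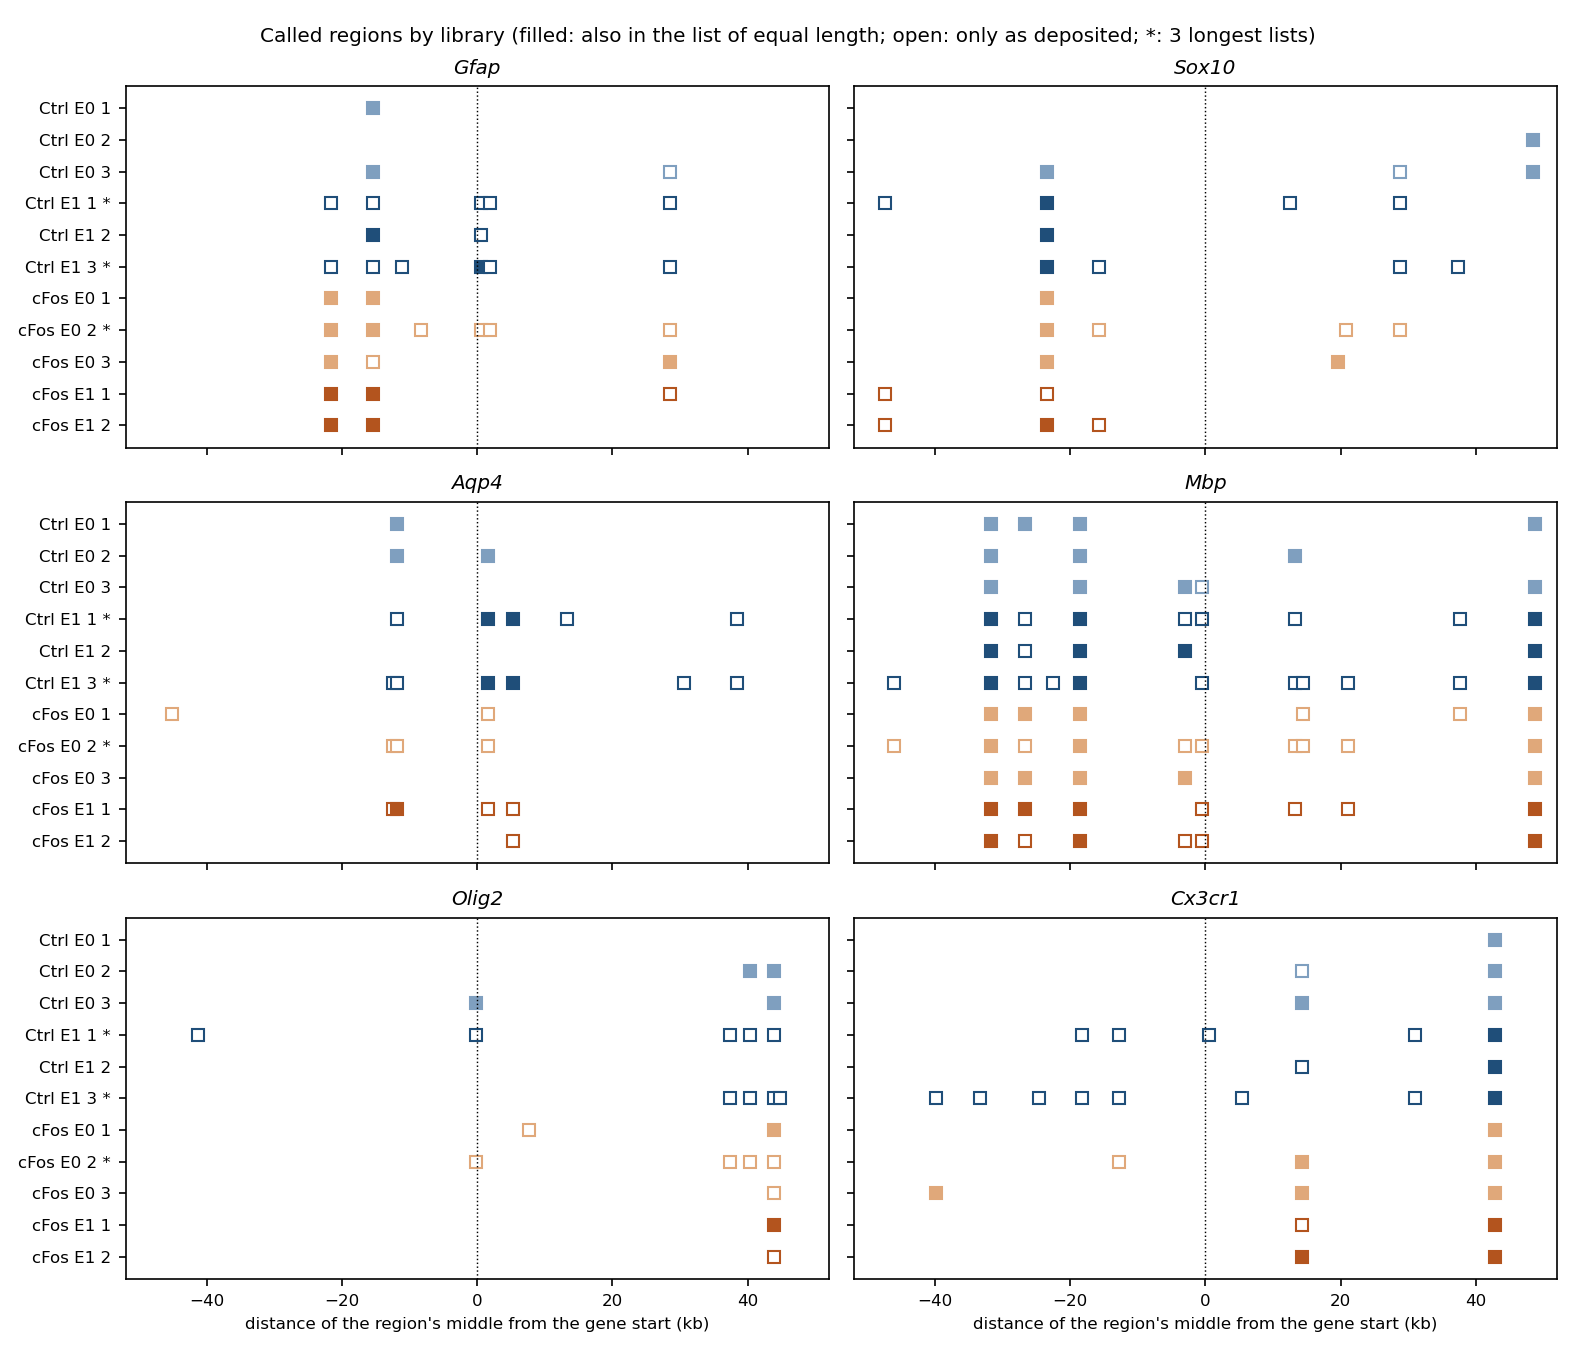
Regions called around each gene start, by library (rows; an asterisk marks the 3 longest lists) and distance of the region's middle from the start in kb (x axis, positive toward higher coordinates). Filled squares are calls kept at equal length and open squares are calls found only as deposited. Filled squares span all 11 libraries for 2 Mbp regions and 1 Cx3cr1 region. The lower-coordinate edges of these regions lie at -32.4 and -19.5 kb of Mbp and 42.2 kb of Cx3cr1. Filled squares at a start occur in 1 library each at Gfap and Olig2.

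Gfap starts at 102.758 Mb on chromosome 11 and is transcribed toward lower coordinates, which hold Higd1b, Eftud2, Ccdc103 and Fam187a, while Kif18b and C1ql1 lie on the other side. As deposited the window held 1, 0 and 2 peaks in shRNA-Ctrl E0, 5, 2 and 6 at shRNA-Ctrl E1, 2, 6 and 3 in shRNA-cFos E0 and 3 and 2 in shRNA-cFos E1. At equal length it held 1, 0 and 1 peaks in shRNA-Ctrl E0, 0, 1 and 1 at shRNA-Ctrl E1, and 2 in each of the 5 shRNA-cFos libraries. Every shRNA-cFos library thus had more than any shRNA-Ctrl library at equal length, with no such separation as deposited. The mean was 2 against 0.667 peaks, a difference of 1.33 within states (two-sided exact permutation test, p = 0.005, the smallest that the 200 regroupings can give). It did not pass adjustment over all windows (exact permutation, Benjamini-Hochberg adjusted p = 1). A p at this floor passes only when many windows reach it together. As deposited the difference was 0.417 (exact p = 0.75). In the 10000 highest-scoring peaks of each list it was 0.333 (exact p = 1).

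A single region of the Gfap window, on the side of Higd1b, Eftud2, Ccdc103 and Fam187a, made most of this difference. No annotation at hand assigns it to a gene. At -22.2 kb, chr11:102735800-102736883, a region of 1084 bp was called at equal length in all 5 shRNA-cFos libraries and in none of the 6 shRNA-Ctrl libraries. That pattern holds for 1 of the 22 member regions and for 0.0607% of all regions. Its score, as deposited, was 209.6, 325.9 and 83.1 in shRNA-cFos E0 and 219 and 167 in shRNA-cFos E1. As deposited it was also called in shRNA-Ctrl E1 replicates 1 and 3, with scores of 140.2 and 109.5. These are 2 of the longest lists, where the region ranks at percentiles 61.7 and 48.0, below the part kept at equal length. A test of single regions between shRNA groups, added after the data were seen, gave a two-sided exact permutation p of 0.005 at equal length and 0.05 as deposited (adjusted p = 1 in both). At equal length 1 of the 22 member regions had an unadjusted p under 0.05 in that test, against 0.602% of all regions, and as deposited 0 of 53 did, against 0.241%. No region of the genome passed adjustment in either. The smallest possible p is 0.005, so a region can pass only when a large share of all regions reach it together. A region that separates the groups fully would fail alone, so the adjustment does not decide here.

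Other Gfap regions were shared between the groups. The region at -16.1 kb, chr11:102741898-102743372, was called in 10 of 11 libraries as deposited and in 7 at equal length. At the Gfap start a region at chr11:102758099-102759023 was called in all 3 shRNA-Ctrl E1 libraries, with scores of 115.5, 58.6 and 249, and in shRNA-cFos E0 replicate 2, with 89.1. No shRNA-Ctrl E0 or shRNA-cFos E1 library called it. Only shRNA-Ctrl E1 replicate 3 kept it at equal length, so the separation within shRNA-Ctrl is seen as deposited alone. It is the 1 member region of 53 called in every shRNA-Ctrl E1 and no shRNA-Ctrl E0 library, against a background of 6.04%. At equal length 0 of 22 had that pattern, against 3.51%. A further region at 28.2 kb was called in 6 libraries as deposited and in 1, shRNA-cFos E0 replicate 3, at equal length.

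Aqp4, the second astrocyte gene, starts at 15.562 Mb on chromosome 18 and has Chst9 on its higher-coordinate side, which is upstream. As deposited its window held 1, 2 and 0 peaks in shRNA-Ctrl E0, 5, 0 and 6 at shRNA-Ctrl E1, 2, 3 and 0 in shRNA-cFos E0 and 4 and 1 in shRNA-cFos E1. At equal length it held 1, 2 and 0 peaks in shRNA-Ctrl E0, 2, 0 and 2 at shRNA-Ctrl E1, 0 in all 3 of shRNA-cFos E0 and 1 and 0 in shRNA-cFos E1. Thus 6 of 11 libraries had no Aqp4 peak at equal length, among them libraries of all 4 groups. The shRNA-cFos minus shRNA-Ctrl difference was -0.917 peaks (exact permutation p = 0.18). The region nearest the start, at 1.29 kb (chr18:15563290-15564063), was called in 6 libraries as deposited and in 3 at equal length. The region at -12.2 kb was called in 6 as deposited and in 3 at equal length.

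An upstream Aqp4 region was called in E1 libraries alone. At 4.95 kb, chr18:15566953-15567626, it was called in shRNA-Ctrl E1 replicates 1 and 3 with scores of 299.8 and 349.6, and in both shRNA-cFos E1 libraries with scores of 93.0 and 59.2. No E0 library of either shRNA group called it. The share of libraries calling it was 0.833 higher at E1 (two-sided exact permutation p = 0.02 as deposited, adjusted p = 0.570). It is the only 1 of the 53 member regions with an unadjusted p under 0.05 for E1 against E0, with a background of 3.51% of all regions. No difference from that share is read. At equal length only the shRNA-Ctrl E1 calls remained, at percentiles 54.3 and 54.9, with a difference of 0.333 (exact p = 0.4), and 0 of 22 member regions had a p under 0.05, against 3.80%. Both shRNA-Ctrl calls come from the longest lists.

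Olig2 starts at 91.226 Mb on chromosome 16, and Olig1, its paralogue in the same lineage, lies on the higher-coordinate side. As deposited the window held 0, 2 and 2 peaks in shRNA-Ctrl E0, 5, 0 and 4 at shRNA-Ctrl E1, 2, 4 and 1 in shRNA-cFos E0 and 1 and 1 in shRNA-cFos E1. At equal length it held 0, 2 and 2 in shRNA-Ctrl E0, 0 in all 3 of shRNA-Ctrl E1, 1, 0 and 0 in shRNA-cFos E0 and 1 and 0 in shRNA-cFos E1. It was the poorest of the 6 windows, with 7 of 11 libraries at 0. The start region, chr16:91225379-91226223, was called in shRNA-Ctrl E0 replicate 3, shRNA-Ctrl E1 replicate 1 and shRNA-cFos E0 replicate 2 with scores of 80.9, 89.2 and 123.6, and the first alone kept it at equal length. A region on the side of Olig1, at 43.5 kb (chr16:91269519-91270307), was called in 9 libraries as deposited and in 4 at equal length. A neighbour at 40.1 kb was called in 4 as deposited and in 1 at equal length. The most often called region of this window was thus far from the Olig2 start.

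Sox10 starts at 78.995 Mb on chromosome 15, with Micall1, 1700088E04Rik and Polr2f on its lower-coordinate side. As deposited its window held 0, 1 and 3 peaks in shRNA-Ctrl E0, 5, 1 and 4 at shRNA-Ctrl E1, 1, 4 and 2 in shRNA-cFos E0 and 2 and 3 in shRNA-cFos E1. At equal length it held 0, 1 and 2, then 1, 1 and 1, then 1, 1 and 2, and then 0 and 1 in the same order of groups. The counts overlap between all groups at equal length. Most of them come from 1 region at -23.9 kb, chr15:78971123-78972046, called in 9 libraries as deposited and in 8 at equal length, on the side of the 3 neighbouring genes. A region at 48.2 kb, chr15:79043249-79043787, was called only in shRNA-Ctrl E0 replicates 2 and 3, with scores of 57.9 and 82.8. The region at 19.4 kb, nearest the start at equal length, came from shRNA-cFos E0 replicate 3 alone. At -47.7 kb a region was called in both shRNA-cFos E1 libraries (scores 66.6 and 76.7), in shRNA-Ctrl E1 replicate 1 (73.8) and in no E0 library (two-sided exact permutation p = 0.05 as deposited, adjusted p = 1), and at equal length in none.

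Regions called in every shRNA-cFos E1 and no shRNA-cFos E0 library were thus 2 of 53 as deposited, at Aqp4 and Sox10, against 1.96% of all regions. At equal length 0 of 22 had this pattern, against 3.39%. The opposite patterns were also at 0 of 22: every E0 and no E1 library within shRNA-Ctrl has a background of 1.15%, and within shRNA-cFos of 1.54%. With 3 libraries against 3, or 3 against 2, no exact p under 0.1 can be reached, so these patterns are counts without a test.

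Mbp, the myelin gene, starts at 82.724 Mb on chromosome 18 and is transcribed toward higher coordinates, where Zfp236 lies. The Mbp locus also has a longer transcription unit, Golli, which begins upstream of the start used here and is known from neurons and immune cells as well as oligodendrocytes. As deposited the window held 4, 3 and 5 peaks in shRNA-Ctrl E0, 8, 5 and 11 at shRNA-Ctrl E1, 6, 10 and 5 in shRNA-cFos E0 and 7 and 6 in shRNA-cFos E1. At equal length it held 4, 3 and 4, then 3, 4 and 3, then 4, 3 and 5, and then 4 and 3. The spread between groups closed once the lists were of equal length. The E1 minus E0 difference was -0.417 peaks (exact permutation p = 0.5), and the shRNA-cFos minus shRNA-Ctrl difference was 0.25 (exact permutation p = 0.625).

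Recurrent open regions at Mbp lay away from its start. Upstream, the region at -32.4 kb, chr18:82691582-82692842, was called in all 11 libraries also at equal length. Its percentile there was 61.0, 38.5 and 52.4 in shRNA-Ctrl E0, 80.9, 74.9 and 56.9 at shRNA-Ctrl E1, 57.2, 73.1 and 62.3 in shRNA-cFos E0 and 79.0 and 80.1 in shRNA-cFos E1. The 2 states overlap within shRNA-Ctrl, and within shRNA-cFos both E1 libraries lie above the 3 at E0. As deposited the shRNA-cFos states overlap too, with percentiles of 67.5, 90.9 and 66.7 at E0 and 89.1 and 87.7 at E1. The share of all regions that separate by rank in this way was not counted. The region at -19.5 kb, chr18:82704487-82706424, was 1938 bp wide and also called in all 11, at percentiles between 5.6 and 60.8. There both shRNA-cFos E1 libraries (35.7 and 47.9) lay below the 3 at E0 (60.8, 60.4 and 49.9). As deposited these states overlap at this region too, with percentiles of 70.3, 86.6 and 55.7 at E0 and 66.5 and 67.7 at E1. The region at 48.1 kb, chr18:82772144-82773280, was called in every library except shRNA-Ctrl E0 replicate 2. Ranks of a peak within lists of unknown depth are given as a description, with no test. The Mbp start region, chr18:82722522-82724310, was called in 6 libraries as deposited with scores from 50.4 to 95.2 and in none at equal length. The region nearest the start at equal length, at -3.50 kb, was called in 3 libraries, 1 each of shRNA-Ctrl E0, shRNA-Ctrl E1 and shRNA-cFos E0. The region at -27.2 kb was called in 9 libraries as deposited and in 4 at equal length.

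Cx3cr1, the microglial receptor gene, starts at 119.977 Mb on chromosome 9, with Xirp1 on the lower-coordinate side and Ccr8 and Slc25a38 on the higher. As deposited the window held 2, 2 and 2 peaks in shRNA-Ctrl E0, 5, 2 and 8 at shRNA-Ctrl E1, 1, 3 and 3 in shRNA-cFos E0 and 2 and 2 in shRNA-cFos E1. At equal length it held 2, 1 and 2, then 1, 1 and 1, then 1, 2 and 3, and then 1 and 2. Of its 10 regions as deposited, 7 were called only in the 3 longest lists. The peak within 1 kb of the start was in shRNA-Ctrl E1 replicate 1 alone, at a score of 58.9 and the 12.5th percentile of that list.

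The strongest region of all 6 windows lay at 42.2 kb from the Cx3cr1 start, on the side of Ccr8 and Slc25a38. This region, chr9:120019176-120020349, was called in all 11 libraries, with scores of 186, 168 and 227 in shRNA-Ctrl E0. At E1 the shRNA-Ctrl scores were 503, 218 and 681. In shRNA-cFos the scores were 311, 532 and 295 at E0 and 364 and 425 at E1. Its percentile at equal length lay between 72.2 and 87.2. Within shRNA-Ctrl the E1 values (82.6, 76.8 and 84.9) lay above those at E0 (74.3, 72.2 and 75.7), and within shRNA-cFos the states overlapped. The E1 values 82.6 and 84.9 come from replicates 1 and 3, which are among the longest lists. How many of all regions separate by rank in this way was not counted, and the ranks were not tested. The Cx3cr1 region at 42.2 kb ranked above every other member region by mean percentile, 80.3 against 65.1 for the Mbp region at -32.4 kb. No annotation of the build of the lists was at hand to place it in a gene. The region at 14.0 kb was called in 7 libraries as deposited and in 4 at equal length, and the region at -40.1 kb in 2 and in 1.

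**Figure D4:**
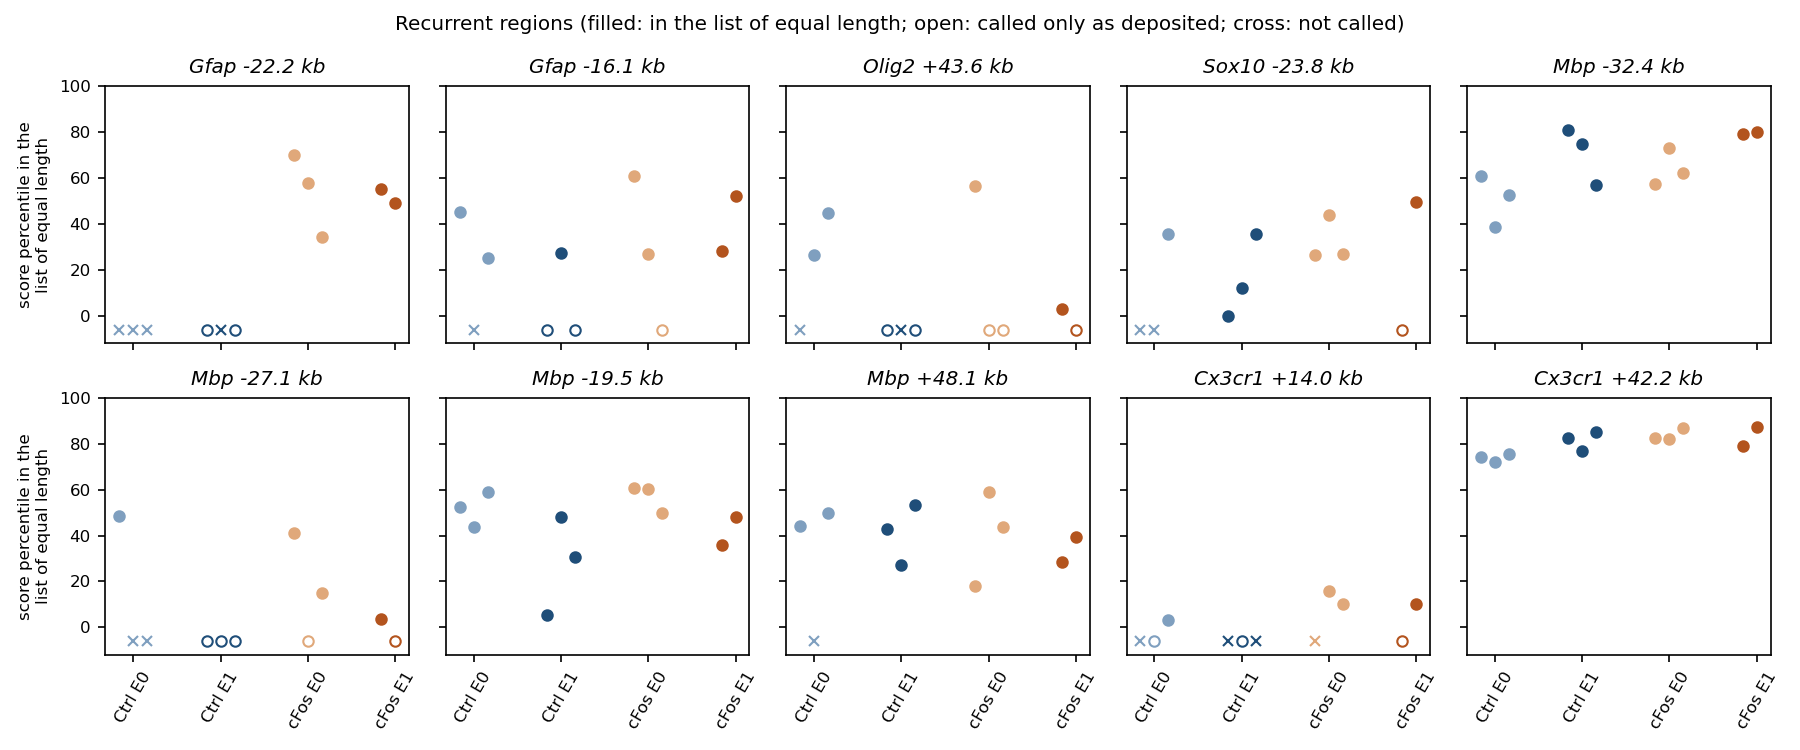
Score percentile within the list of equal length (y axis, 0 weakest to 100 strongest) of the 10 regions called in at least 4 libraries at equal length, by group, 1 point per library; an open circle is a call found only as deposited and a cross no call. The Cx3cr1 region at 42.2 kb lies between 72.2 and 87.2 in all 11 libraries, and the Gfap region at -22.2 kb is filled in the 5 shRNA-cFos libraries alone.

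Read over all 6 windows, no difference between E1 and E0 passed the test. At equal length the difference in peaks ranged from -0.583 at Olig2 and at Cx3cr1 (exact permutation p = 0.32 for each) through -0.417 at Sox10 (p = 0.42) and 0 at Gfap (p = 1) to 0.417 at Aqp4 (p = 0.37). With an unadjusted p under 0.05 there were 0 of 6 windows, against 6.86% of all windows. As deposited all 6 differences were above 0, from 0.167 at Olig2 to 1.75 at Aqp4 and at Mbp (exact permutation p between 0.19 and 0.925). Again 0 of 6 had a p under 0.05, against 7.27%. Genome-wide, no window passed: adjusted values were at least 0.392 at equal length and 0.496 as deposited. Here too a window can pass only when many windows reach the smallest possible p together. Differences smaller than the spread between libraries were not detectable.

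Between the shRNA groups the Gfap window alone had a p under 0.05 at equal length, 1 of 6 windows against 2.05% of all. As deposited 0 of 6 did, against 0.451%. At equal length the differences at the other 5 genes ran from -0.917 at Aqp4 to 0.417 at Cx3cr1 (exact permutation p between 0.18 and 0.79). Whether the change from E0 to E1 differed between the shRNA groups was tested per locus by exact permutation within states. The smallest of the 12 p-values was 0.075, at Gfap as deposited, where the difference in change was -4.5 peaks. There the shRNA-Ctrl mean went from 1 at E0 to 4.33 at E1 and the shRNA-cFos mean from 3.67 to 2.5, with 3 of the 11 values taken from the longest lists. At equal length that difference at Gfap was 0 (exact p = 1).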

How the data were processed

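Each deposited list holds the authors' peaks of 1 library, with position and a score from 50 to 3100. Peaks are named after the caller MACS, and the aligner Bowtie2 and build mm9 are named per the submitters' processing notes. Call settings, read filters, transposase shifts and the score's scale are not given in the sources used here. Scores as deposited ordered the peaks inside each list and served 1 minimum. Read depth is unknown, so no interval is given. The 554 peaks on chromosome Y were left out.

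From these lists, peaks within 50 kb of each start were counted per library. Differences were stratified means, tested by two-sided exact permutation of the labels within the other factor (200 regroupings), over all 100 kb windows that held a peak plus the 6, with Benjamini-Hochberg adjustment over all of them; regions, tested on the share of libraries calling them, were adjusted over all regions. P-values measure the spread between mice. Named regions are, per window, the one nearest the start, the one with the highest mean percentile, up to 2 called in all 11 libraries, and up to 3 with the largest difference between E1 and E0; other named regions were chosen after their values were seen. The test of regions between shRNA groups and the reading without the 3 longest lists were added after seeing the data. The members and lists were chosen with earlier results of these data known. Alternatives were the lists as deposited, a score of at least 100, the 10000 highest-scoring peaks, covered length, 25 or 100 kb to each side, peaks within 200 bp merged, 50% of a region covered, a replicate block and each library left out.

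Gene names and promoters come from RefSeq tables of GRCm38.p6, and no coordinates were moved between builds. Other glial and neuronal marker genes, which need an mm9 annotation, were not analysed here. Python 3.11.15 was used with numpy 2.4.6, pandas 2.3.3 and matplotlib 3.10.9.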

Additional observations from a re-analysis of the deposited data

How the results depend on the processing

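Peak number per window changed direction or call with the choice of list more than with any other choice. As deposited, the E1 minus E0 difference was 0.167 at Olig2, 1.08 at Sox10, 1.75 at Mbp and 1.33 at Cx3cr1, each below 0 at equal length, and the shRNA-cFos minus shRNA-Ctrl difference was 0.417 at Gfap, 0.0833 at Sox10 and -1.33 at Cx3cr1. With a score of at least 100 the former was 0.667 at Sox10, 0.75 at Mbp and 0.5 at Cx3cr1, and the latter 0.333 at Gfap (exact p = 0.87), 0.25 at Olig2, 0.333 at Sox10 and -0.5 at Cx3cr1. The Gfap difference was also 0.333 (exact p = 1) in the 10000 highest-scoring peaks, so its call rests on lists of 1 length. The Mbp E1 minus E0 difference in covered length was 153 bp, and the Sox10 shRNA difference was 17.8 bp in covered length, 0.25 peaks within 25 kb and 1.67 within 100 kb (exact p = 0.03). Within 25 kb the Mbp shRNA difference was -0.333, and within 100 kb the Cx3cr1 E1 minus E0 difference was 0.167. Without the 3 longest lists the Aqp4 E1 minus E0 difference was -0.25, and the Gfap shRNA difference was 1.17 (exact p = 0.0333).

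Regions with an unadjusted p under 0.05 numbered 1 as deposited for E1 minus E0 and 0 for the shRNA comparison as deposited and with a score of at least 100. In the replicate block the 32 exchanges allow no p below 0.0625, so no region could be counted there and its 0 decides nothing. The share difference between shRNA groups at Gfap -22.2 kb stayed at 1 in that block (exact permutation p = 0.0625). As deposited, 1 region was called in every E1 and no E0 library within shRNA-Ctrl and 2 within shRNA-cFos, whichever libraries of the other shRNA group called them. In the share of libraries calling a region, E1 minus E0, direction turned as deposited at Gfap 28.2 kb (0.0833), Aqp4 -12.2 kb (0.0833), Mbp -27.1 kb (0.333) and Mbp -3.5 kb (0.0833). With a score of at least 100 it turned at Aqp4 -12.2 kb (0.25), Olig2 40.2 kb (0.167), Mbp -27.1 kb (0.25) and Cx3cr1 -40.0 kb (0.167), and without the 3 longest lists at Aqp4 1.3 kb (-0.167) and Mbp -3.5 kb (0.0833). The cause was not tested.

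Leaving out 1 library at a time, the Gfap shRNA difference stayed between 1.17 and 1.42 (exact p from 0.01 to 0.025). That at Sox10 lay between -0.333 and 0.167, above 0 without shRNA-Ctrl E0 replicate 3 or shRNA-cFos E1 replicate 1. Regions called in every E1 and no E0 library numbered 0 to 1 in each shRNA group, and the opposite pattern 0 to 2 in shRNA-Ctrl and 0 to 1 in shRNA-cFos; the 2 came without shRNA-Ctrl E0 replicate 1. Without shRNA-cFos E1 replicate 2 the share difference turned at Aqp4 -12.2 kb, whose range was -0.333 to 0.167, and at Sox10 -23.8 kb, with -0.167 to 0.333. Deviations of calls from their group mean were correlated between E0 and E1 libraries of the same shRNA group. The correlations were between -0.0423 and 0.0925 for same-numbered libraries and between -0.0914 and 0.078 for differently numbered ones. The 2 shRNA-cFos E1 libraries deviate from their mean by opposite amounts, so their correlations mirror each other (-0.0349 and 0.0349 with E0 replicate 1). Those values cannot decide on pairing. Within shRNA-Ctrl the same-numbered values were -0.0423, 0.0104 and 0.0925, and the others lay between -0.0914 and 0.078. No pairing by number between the states was seen there, though deviations from a mean of 3 are also tied to each other. Pairing by number across the shRNA groups was not examined. In the replicate block the Gfap shRNA difference was 1.42 (exact p = 0.0625, the smallest that 32 exchanges allow).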
